A study of Mus musculus with 6 samples.

Results

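Ikaros is a zinc finger transcription factor and the product of Ikzf1. Its sites were mapped by chromatin immunoprecipitation with sequencing (ChIP-seq) in mouse natural killer (NK) cells, and the peaks at 34 genes of cell survival and cell death were examined. A peak was counted for a gene where the gene column of the authors' deposited lists named that gene in the peak's row. Of the 34 genes, 12 (35.3%) were named at a peak in at least 1 list, against 9.55% of the 21883 protein-coding genes of the RefSeq table. The 34 genes were chosen with earlier results of these data known, so such shares describe this list and do not measure an excess. The series held 6 samples of NK cells from spleen, expanded in culture with IL-15 at 50 ng/ml and precipitated with an antibody to Ikzf1. In 3 of them the cells were wild type (WT), and in 3 Ikzf1 was knocked out conditionally in cells that express NKp46 (KO). The 3 peak lists used here belong to the 3 WT samples, and KO libraries were not analysed here. The labels give no age or strain and do not state whether a replicate was its own animal or culture. Differences between lists may therefore be technical. Peak lists hold no expression values, so the cell type could not be checked against marker levels.

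Cell death by the mitochondrial route is set by the BCL-2 family. Pro-survival members such as BCL-2 and MCL-1 hold in check the effectors BAX and BAK, and the BH3-only proteins, which sense stress or loss of cytokine, oppose the pro-survival members. Once the effectors open the mitochondrial outer membrane, APAF1 and caspase-9 form the apoptosome, while death receptors act through FADD and caspase-8, and inhibitor of apoptosis proteins (IAPs) restrain caspases. NK cells depend on IL-15 for survival, with MCL-1 and BCL-2 as its well known mediators and BIM, the product of Bcl2l11, as their opponent.

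Peaks at these genes were unevenly spread over the lists. With 685, 2084 and 1342 peaks, WT replicates 1, 2 and 3 named 2, 11 and 5 of the 34 genes. These shares were 5.88%, 32.4% and 14.7%, where 2.71%, 7.80% and 5.52% of protein-coding genes were named in the same lists. In 2 or more lists 6 genes had a peak (17.6%, background 4.47%), namely Bcl2, Mcl1, Bad, Bbc3, Bnip3 and Casp8. For 4 of them, Mcl1, Bad, Bnip3 and Casp8, peaks of 2 lists shared at least 1 base (11.8%, background 4.35%). None had a peak in all lists, 0 of 34, which allows a share of up to 8.82% by counting error over genes alone, and 2.01% of protein-coding genes did. The 6 genes Bcl2l11, Bmf, Bnip3l, Casp2, Casp9 and Xiap had a peak in 1 list, and 22 had none.

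**Figure D1:**
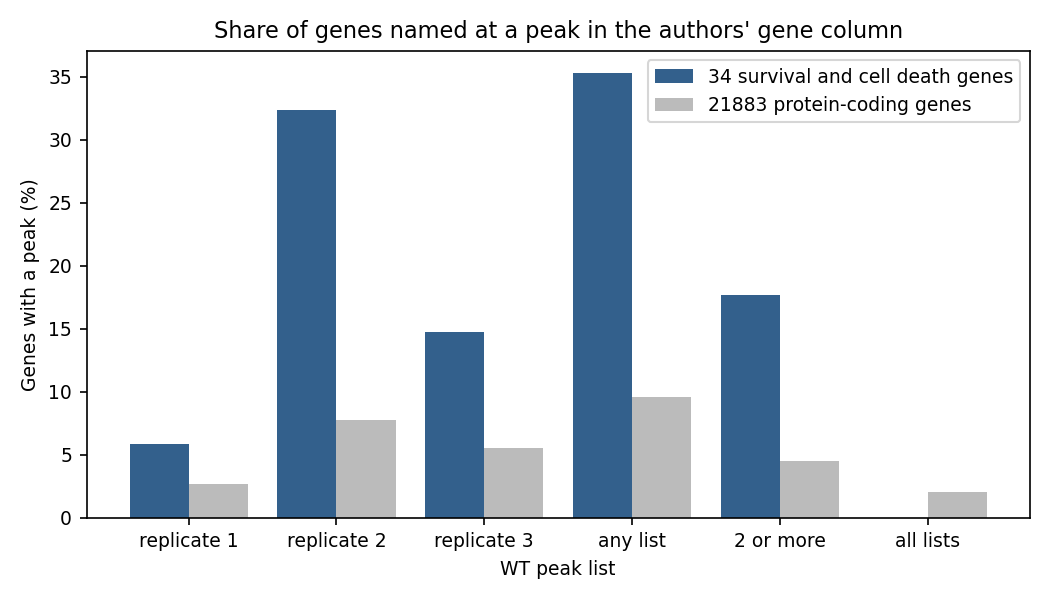
Percent of genes (vertical axis) named at a peak in each WT list, in any list, in 2 or more and in all lists, for the 34 survival and cell death genes (blue bars) and for 21883 protein-coding genes (grey bars). Blue bars stand above grey ones except in the last group, where 0 of 34 genes had a peak in all lists. The 34 genes were chosen with earlier results of these data known, so the difference is a description.

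These were mostly weak peaks of their lists. Fold enrichment, the linear ratio of signal over the authors' background, belongs to its own list, so each peak was given its percentile by fold enrichment within that list, 100 being the strongest. The 18 peaks at the genes had fold enrichments of 3.20 to 6.41 and a median percentile of 22.1, against 49.2 for the 3442 peaks named for any protein-coding gene. Of the 18, 4 stood above the 50th percentile, and 2 had a −log10 q of 5 or more, the Casp9 peak of replicate 1 and the Bad peak of replicate 2. That threshold was reached by 40.1%, 36.4% and 43.4% of all peaks in the lists of replicates 1, 2 and 3. With peaks past it alone, 2 of the 34 genes were named (5.88%, background 3.77%) and 0 in 2 or more lists (background 1.87%). The lists were also reduced to the 685 peaks each with the highest −log10 p, a ranking other than that by fold enrichment. Of the 34 genes, 4 were then named, Bad, Bcl2, Casp9 and Mcl1 (11.8%, background 4.61%). Again 0 were named in 2 or more lists (background 2.36%). Without the list of replicate 2, the longest, 7 genes had a peak in any list (background 6.06%) and 0 in both remaining lists (background 2.16%). Without that of replicate 3 the counts were 12 (background 8.19%) and 1 (background 2.31%). Without that of replicate 1, the shortest, they were 11 (background 9.31%) and 5 (background 4.01%).

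**Figure D2:**
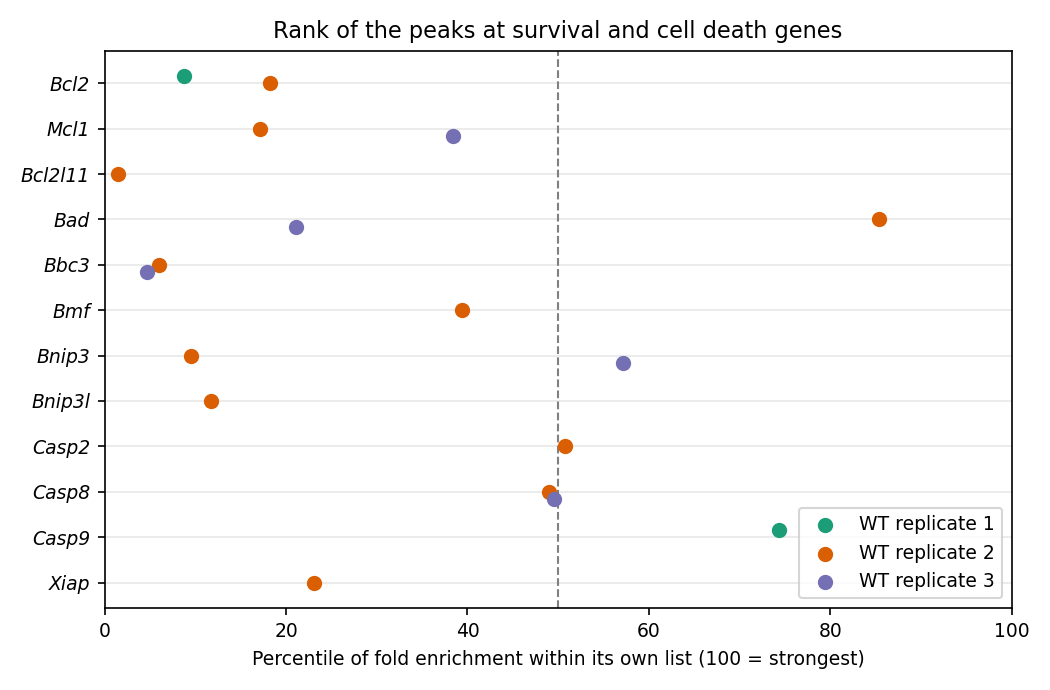
Percentile of fold enrichment within its own list (horizontal axis) for each peak at the 12 genes with a peak, ordered by role and coloured by WT replicate; a row with 1 point had a peak in 1 list. Most points lie left of the dashed line at 50, and the highest is Bad in replicate 2 at 85.4.

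Among the 4 pro-survival BCL-2 genes, Mcl1 and Bcl2 had peaks, each in 2 lists (background 4.47%), and Bcl2l1 and Bcl2l2 had none. Mcl1 (ENSMUSG00000038612) encodes a short-lived guardian of mitochondria. Its peak was at chr3:95658691-95659669 in replicate 2, with a fold enrichment of 3.88, a −log10 q of 3.06 and the 17.1 percentile. In replicate 3 it was at chr3:95658628-95659619, with a fold enrichment of 4.68, a −log10 q of 4.38 and the 38.5 percentile. Both covered the gene's listed start and reached 948 and 898 bp past it, and they shared 929 bases, 94.9% of the shorter peak. The nearest peak of replicate 1 lay 441 kb from the gene, so 1 of 3 lists had nothing near it.

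Bcl2 (ENSMUSG00000057329), the founding member of the family, was named in 2 lists at sites 101 kb apart. In replicate 1 the peak, chr1:106714120-106714342, covered the listed start, from 52 bp upstream to 170 bp downstream, with a fold enrichment of 3.95, a −log10 q of 1.30 and the 8.76 percentile. In replicate 2 the peak, chr1:106612422-106613026, lay inside the 176 kb gene, 101264 bp downstream of the start, with a fold enrichment of 3.90 and the 18.3 percentile. The nearest peak of replicate 3 lay 8876 kb from the gene. Bcl2 was thus counted in 2 lists without a site that lists shared.

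The start regions of Mcl1 and Bcl2 are shown because peaks lay on them, and because they differ in letters of the Ikaros core motif. Each is the RefSeq window of GRCm38.p6 from 250 bases before to 50 after the start, 5′ to 3′ on the gene's strand, chr3:95658471-95658770 (plus strand) for Mcl1 and chr1:106714241-106714540 (minus strand) for Bcl2. Capitals mark GGGAA or its reverse complement TTCCC.
Mcl1: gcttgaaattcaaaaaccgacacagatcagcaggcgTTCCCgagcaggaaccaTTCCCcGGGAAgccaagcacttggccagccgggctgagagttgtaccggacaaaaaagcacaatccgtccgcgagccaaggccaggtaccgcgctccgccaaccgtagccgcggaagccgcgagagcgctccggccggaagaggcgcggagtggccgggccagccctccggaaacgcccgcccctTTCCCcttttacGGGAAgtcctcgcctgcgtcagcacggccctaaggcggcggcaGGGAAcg
Bcl2: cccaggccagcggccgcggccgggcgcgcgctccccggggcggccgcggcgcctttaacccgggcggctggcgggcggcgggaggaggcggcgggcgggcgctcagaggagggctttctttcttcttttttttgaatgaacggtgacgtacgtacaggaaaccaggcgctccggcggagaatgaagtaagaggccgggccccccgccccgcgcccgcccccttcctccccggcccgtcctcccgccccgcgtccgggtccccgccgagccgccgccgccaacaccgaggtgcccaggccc
Mcl1 held 6 matches, 3 of them inside a Mcl1 peak, and Bcl2 held 0. The motif is short, and 62.7% of all 32851 windows held it at least once, so a match is a description of the letters and no binding site.

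Of the 8 BH3-only genes, 4 had a peak in any list (background 9.55%), and 2 of these, Bad and Bbc3, had one in 2 lists (background 4.47%). Bad (ENSMUSG00000024959), whose product is kept inactive by growth factor signalling, had the peak with the highest fold enrichment and percentile of the 18. In replicate 2 it was at chr19:6951429-6951768, with a fold enrichment of 6.41, a −log10 q of 8.48 and the 85.4 percentile. In replicate 3 it was at chr19:6951344-6951686, with a fold enrichment of 4.16, a −log10 q of 1.91 and the 21.1 percentile. The lists shared 258 bases there but ranked the site far apart. The site lay at the far end of the gene, 137 and 219 bp from the end of the span and 8867 and 8782 bp from the nearest listed start of Bad. The nearest listed start of another protein-coding gene, Gpr137, was 8979 bp from the replicate 2 peak. The nearest peak of replicate 1 was 17.8 kb from the gene.

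Bbc3 (ENSMUSG00000002083) encodes PUMA, a p53 target that binds every pro-survival member. In replicate 3 its peak, chr7:16309477-16310213, covered a listed start, with a fold enrichment of 3.70 and the 4.69 percentile. In replicate 2 the peak, chr7:16312893-16314183, began 2462 bp downstream of the nearest start, with a fold enrichment of 3.58 and the 6.05 percentile. The peaks were 2680 bp apart and both were among the weakest of their lists. Bcl2l11 (ENSMUSG00000027381), which encodes BIM, had a peak in replicate 2 at chr2:128125845-128126076, from 193 bp upstream to 38 bp downstream of a listed start. Its fold enrichment was 3.20 and its percentile 1.44, the lowest of the 18 peaks, with a −log10 q of 1.86. Bmf, a BH3-only protein tied to the cytoskeleton, was named in replicate 2 for a peak outside the gene, 5017 bp upstream, at chr2:118554703-118555321, with a fold enrichment of 4.44 and the 39.4 percentile. Bid, Pmaip1 (NOXA), Bik and Hrk had no peak.

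The start region of Bcl2l11, chr2:128125788-128126087 (plus strand), is shown as the BIM promoter on which a peak covered 232 of 300 bases, with the same marking.
Bcl2l11: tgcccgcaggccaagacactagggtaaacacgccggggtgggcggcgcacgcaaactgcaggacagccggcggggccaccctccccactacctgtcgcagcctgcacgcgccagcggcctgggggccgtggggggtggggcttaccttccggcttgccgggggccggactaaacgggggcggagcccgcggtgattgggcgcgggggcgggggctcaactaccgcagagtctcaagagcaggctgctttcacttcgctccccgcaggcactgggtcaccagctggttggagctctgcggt
It held 0 matches to GGGAA in either direction.

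The effectors Bax and Bak1 had no peak, and the related mitochondrial genes Bnip3 and Bnip3l, whose products mark mitochondria for removal under low oxygen and in maturing cells, did. Bnip3 (ENSMUSG00000078566) had peaks just upstream of its listed start in 2 lists. In replicate 2 the peak was at chr7:138909569-138909989, 63 bp from the start, with a fold enrichment of 3.70, a −log10 q of 1.68 and the 9.55 percentile. In replicate 3 it was at chr7:138909774-138909976, 268 bp from the start, with a fold enrichment of 5.25, a −log10 q of 4.29 and the 57.2 percentile. The replicate 3 peak lay wholly within the other, and the nearest peak of replicate 1 was 2038 kb from the gene. Bnip3l had a peak in replicate 2 alone, chr14:67008555-67009134, over 1 end of its span, with a fold enrichment of 3.76 and the 11.8 percentile. Bcl2l13, a mitochondrial BCL-2 relative, had none.

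Caspase genes with a peak were 3 of the 6 in the group of caspases and apoptosome components, which also holds Apaf1 and Diablo (background 9.55%). Casp8 (ENSMUSG00000026029), the initiator caspase of death receptors, had peaks in 2 lists. In replicate 2 it was at chr1:58797636-58797847, with a fold enrichment of 4.71, a −log10 q of 2.94 and the 48.9 percentile. In replicate 3 it was at chr1:58797434-58797671, with a fold enrichment of 4.97, a −log10 q of 3.52 and the 49.6 percentile. Strength and rank were close, but the peaks shared 36 bases, 17.0% of the shorter one, and would not count as shared where 50% was asked. They lay 4655 and 4831 bp upstream of the listed start but inside the gene's span, 2403 and 2201 bp past its 5′ end. The authors' column also named Gm37760 at the replicate 2 peak. Casp9 (ENSMUSG00000028914), the initiator caspase of the apoptosome, had a peak in replicate 1 alone, chr4:141793670-141793897, from 58 to 285 bp downstream of its start. Its fold enrichment was 5.92, its −log10 q 5.59 and its percentile 74.3. The nearest peaks to it in replicates 2 and 3 were 68001 and 94876 bp away. Of the peaks in the list of replicate 1, 90.5% had a partner in another list, and neither the Casp9 nor the Bcl2 peak did.

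Casp2 (ENSMUSG00000029863), a caspase activated after DNA damage and mitotic errors, had a peak over its start in replicate 2, chr6:42264773-42265127, with a fold enrichment of 4.75, a −log10 q of 4.09 and the 50.7 percentile. Its start region, chr6:42264735-42265034 (plus strand), is shown as a contrast to Bcl2 and Bcl2l11, since it held 5 matches to GGGAA, 4 of them inside the peak.
Casp2: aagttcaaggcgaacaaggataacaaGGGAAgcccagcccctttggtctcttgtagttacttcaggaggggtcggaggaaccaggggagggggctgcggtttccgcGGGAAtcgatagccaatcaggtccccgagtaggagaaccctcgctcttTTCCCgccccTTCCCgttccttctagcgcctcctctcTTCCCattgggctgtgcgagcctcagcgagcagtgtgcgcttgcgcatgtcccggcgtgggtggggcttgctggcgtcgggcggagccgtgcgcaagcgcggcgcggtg
The longer TGGGAA, present in 25.6% of all windows, also occurred there 1 time.

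In death receptor signalling 0 of 7 genes had a peak (background 9.55%), and 7 genes are too few to tell a count of 0 from that share. The group holds the receptors Fas, Tnfrsf1a and Tnfrsf1b, the adaptors Fadd and Tradd, the kinase Ripk1, and Cflar, which encodes the caspase-8 inhibitor FLIP. Tnfrsf1a and Tradd had a peak 4.99 kb away in replicate 2, named by the authors for Plekhg6 and Hsf4, with fold enrichments of 3.90 and 4.33. With 10 kb on each side of the gene counted, these would bring the number of genes with a peak to 14 of 34, and the background to 12.4%. Cflar neighbours Casp8 on chromosome 1, and the peak nearest to it, 38.6 kb away, was the Casp8 peak. Among the IAP genes, Xiap (ENSMUSG00000025860), whose product blocks effector caspases directly, had a peak in replicate 2. It lay at chrX:42068084-42068406, over a listed start, with a fold enrichment of 4.04, a −log10 q of 1.88 and the 23.0 percentile. Birc2, Birc3 and Birc5 had none.

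**Figure D3:**
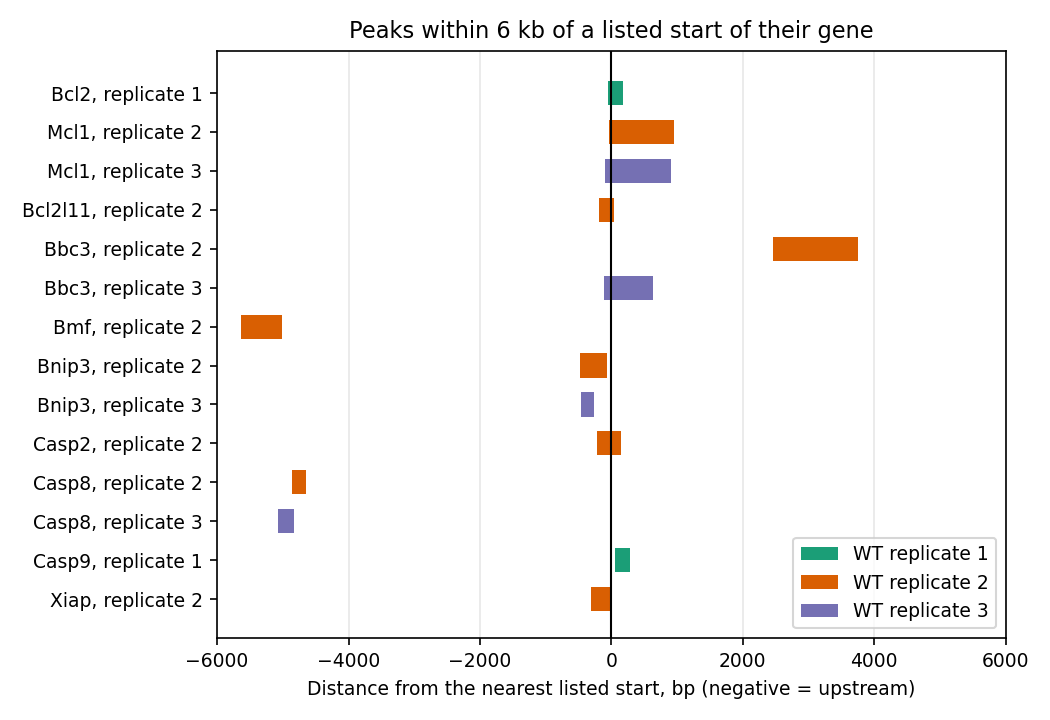
Position of each peak within 6 kb of a listed start of its own gene (bars, coloured by WT replicate; horizontal axis in bp along the direction of the gene, 0 at the start). Most bars lie on or beside 0. The Bmf peak lies upstream of its gene, and the replicate 2 peak of Bbc3 lies downstream of the start. The Casp8 peaks lie upstream of the listed start but inside the gene's span. Bad, the replicate 2 peak of Bcl2 and Bnip3l are not drawn.

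Most of the genes with a peak had it at a start of transcription. Of 11 such genes with a start in the RefSeq promoter table, 8 (72.7%) had a peak within 1 kb of one, namely Bbc3, Bcl2, Bcl2l11, Bnip3, Casp2, Casp9, Mcl1 and Xiap. Among the 1675 protein-coding genes named at a peak and holding a listed start, the share was 68.5%, so the position was close to that of other genes. Counted over all genes with a listed start, 8 of 30 members had a peak within 1 kb of it (background 7.20%), and 2, Bnip3 and Mcl1, in 2 lists (background 3.35%). No other protein-coding gene had a listed start within 1 kb of any of the 18 peaks. Starts were listed for 17491 of the 21883 protein-coding genes, so a neighbour without a listed start would have been missed.

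The start regions under these peaks were rich in G and C. A peak of the gene overlapped 9 windows of 7 genes, with a G+C content of 61.7% to 78.0% (median 71.7%) and a median of 30 CpG dinucleotides. All 3 windows of Bbc3 were among them, under its replicate 3 peak and in part overlapping. The highest G+C content came from Bbc3, so the 9 windows are not separate units. Member windows without a peak, 33 in number, had a median of 60.3% and 19 CpG. Over the 21262 windows of protein-coding genes the medians were 56.3% and 13, and over the 1151 of these that a peak of any list overlapped they were 66.0% and 27. The part of base composition in the peak calls was not tested. GGGAA was found in 6 of the 9 windows and in 23 of the 33, against 63.0% of protein-coding windows and 68.6% of those overlapped by a peak. The AP-1 motif TGANTCA, searched because the series title names AP-1, was in 0 of the 9 windows and 1 of the 33, and 6.99% of protein-coding windows hold it. The cyclic AMP response element TGACGTCA was likewise in 0 of the 9 and 1 of the 33, against 2.23% of protein-coding windows. With 9 windows, a count of 0 cannot be told from such shares. GGAA, the core of ETS sites, which GGGAA contains, was in 8 of the 9 and in 95.7% of protein-coding windows. Matches were counted on both strands.

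For the 22 genes without a peak of their own, the distance from the gene span to the nearest peak of any list ranged from 4.99 to 980 kb with a median of 395 kb, and 4 genes, Tradd, Tnfrsf1a, Cflar and Bax, had one within 50 kb (18.2%). The 19794 protein-coding genes not named at a peak had a median of 242 kb, and 16.3% of them had a peak within 50 kb, a share close to that of the 22. Bax had a peak 45.7 kb away, named by the authors for Ntf5. Bcl2l1, which encodes BCL-XL, had its nearest peak 408 kb away, Bid 743 kb, Fas 898 kb and Casp6, an effector caspase, 980 kb. Neighbouring genes share such a distance, as Birc2 and Birc3 do on chromosome 9, at 944 and 908 kb. Median gene length was 21.6 kb for the 12 genes with a peak and 18.4 kb for the 22 without. Over protein-coding genes those named at a peak had a median length of 32.2 kb, and all genes together 17.2 kb.

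**Figure D4:**
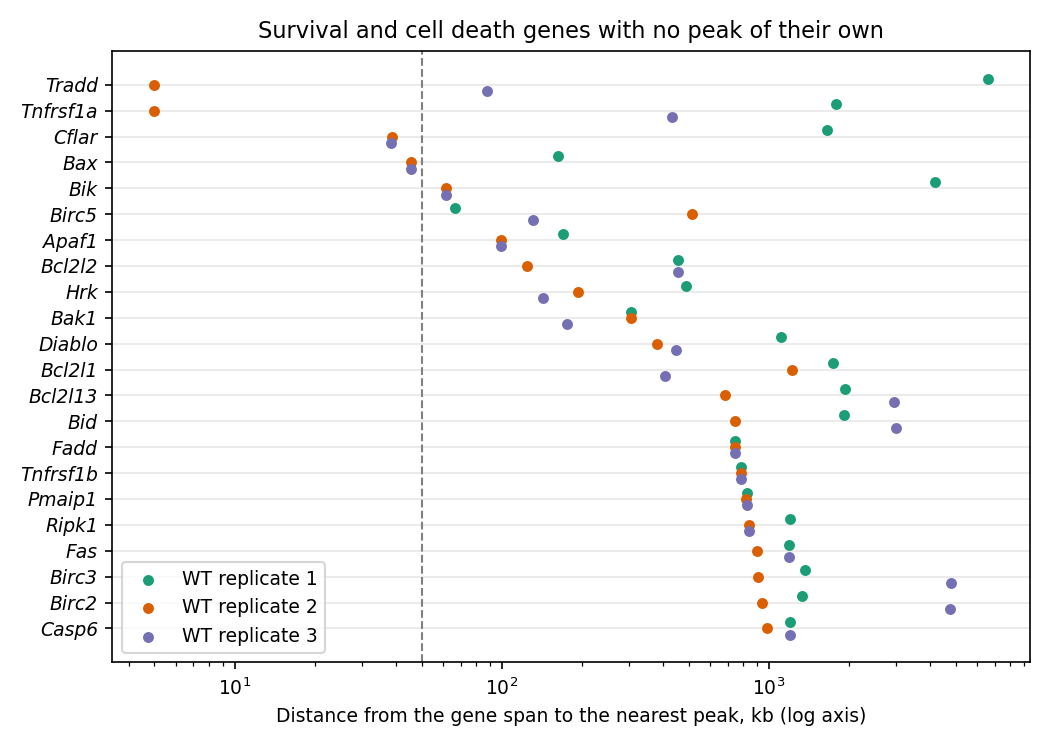
Distance in kb (log axis) from the span of each of the 22 genes with no peak of its own to the nearest peak in each WT list (coloured points), ordered by the smallest distance; the dashed line is at 50 kb. Tradd, Tnfrsf1a, Cflar and Bax have a point left of the line.

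A wider list of 90 other genes of cell death and its control was examined in the same way. Of these, 13 (14.4%) had a peak in any list and 3 (3.33%) in 2 or more, where the backgrounds were 9.55% and 4.47%. Bag1, which encodes a co-chaperone that binds BCL-2, had a peak in all lists, at chr4:40948285-40948618 in replicate 1, with fold enrichments of 8.48, 11.4 and 13.0 and percentiles of 93.7, 97.3 and 97.3 in replicates 1, 2 and 3. This site also covered the listed start of Chmp5, so it could belong to either gene. Fasl, the death ligand of NK cells, had a peak over its start in replicates 2 and 3, at chr1:161787865-161788518 in replicate 2, with fold enrichments of 4.36 and 4.16 and percentiles of 36.4 and 21.2. Its receptor gene Fas, as given above, had none. Pim1, a survival kinase induced by cytokines, had a peak that began 1139 bp downstream of its start in replicate 2 and 1142 bp in replicate 3, at chr17:29494224-29494525 in replicate 2, with fold enrichments of 5.38 and 5.12 and percentiles of 69.0 and 54.1.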

How the data were processed

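Per the submitters' processing notes, Subread, Picard, SAMtools, MACS2, edgeR 3.20.0 and mm10 were used, with no roles given; the control, the threshold and the gene annotation are not given in the sources used here. Per the peak names, a list stands for 1 WT library, and the list numbered 4 belongs to WT replicate 3 by its description. The authors deposited a fold enrichment (a linear ratio), −log10 p and q, and a score equal to the whole part of 10 times −log10 q. Peak width, the distance to the gene and a transcription factor mark were also deposited. The lists hold no read counts, so depth is unknown.

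Rows were reduced from 800, 2414 and 1595 to 685, 2084 and 1342 peaks. The background was all protein-coding genes of the RefSeq table for GRCm38.p6, the same build; 2082 of 2145 protein-coding names in the lists matched it (97.1%), as did 34 of 34 members. Starts and promoter sequences came from RefSeq, with none for Pmaip1, Bik, Bnip3l and Tradd; exons and introns were not assigned. No test was run: the lists give no replicate values to compare, and KO libraries were not analysed here. Named were all members, and the wider list's genes with a peak in 2 or more lists; the rest of that list with a peak stand in the closing section. Members and lists were chosen with earlier results of these data known. Alternatives were the gene table, stricter q, equal list lengths, other overlap rules and leaving out each list. Region merging and gene assignment were tested on simulated data. Python 3.11.15, pandas 2.3.3, NumPy 2.4.6 and matplotlib 3.10.9 were used.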

Additional observations from a re-analysis of the deposited data

How the results depend on the processing

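No paired analysis was possible because no KO library was used and groups were not compared. Genes with a peak in any list were 12 with all peaks (background 9.55%). They came to 2 once −log10 q had to reach 5 (background 3.77%) and to 0 once it had to reach 10. With lists of equal length they were 4 (background 4.61%), and without 1 list they ranged from 7 to 12 (background 6.06% to 9.31%). Genes with a peak in 2 or more lists, 6 with all peaks, and those with a shared region, 4, both came to 0, 0 and 0 under the same 3 settings. For 2 or more lists the background was 1.87% at 5 and 2.36% with equal lengths. Without 1 list the counts ranged from 0 to 5 and from 0 to 4, and the background in both remaining lists from 2.16% to 4.01%. No background was computed at 10, or for shared regions under these settings or other overlap rules. Genes with a peak in every list used ranged from 0 to 5 without 1 list, the 5 without replicate 1. These settings leave fewer or shorter lists by construction. The gene table in place of the authors' column gave the same 12 and 6, and a background of 10.2% and 4.81%. Sharing 50% of the shorter peak left 3 shared regions, without Casp8, and joining peaks within 200 bp left 4. The median percentile was 17.9 by −log10 p, and 47.9 over the 2 peaks whose −log10 q reached 5, ranked among such peaks. The backgrounds at stricter settings were chosen after seeing the data. Depth is unknown, so a weak site missed in a list cannot be told from an unbound one. Without a comparison to KO libraries, a weak call cannot be told from nonspecific signal either.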

Other observations

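The other 10 genes of the wider list had a peak in 1 list. Those of replicate 3 included the FOXO factors, which drive BH3-only genes when growth signals fade. Foxo1 had a fold enrichment of 5.61 (66.1 percentile) 258 bp from the gene, and Foxo3 5.19 (55.7 percentile) 1306 bp away, by the authors' distances. Pdcd4, a translation inhibitor, had 6.61 (83.5 percentile) 2391 bp away, and Htra2, a mitochondrial protease, 3.82 (8.12 percentile) at a peak also named for Aup1.

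In replicate 2, Trp53, which encodes p53, had a peak with a fold enrichment of 4.83 (53.6 percentile) that began 1110 bp downstream of a listed start. Gadd45g, a stress response gene, had 4.91 (56.1 percentile) 855 bp away. Peaks over a start were listed for Bcl10 (4.24, 30.4 percentile), Ppp1r13b (3.97, 20.5 percentile) and Mlkl, the executioner of necroptosis (3.57, 5.71 percentile). Traf1, a TNF receptor adaptor, had 3.81 (13.8 percentile) 2634 bp away.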
